A study of Homo sapiens with 4 samples.

Results

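PRKCI, on the long arm of chromosome 3 in band 3q26, encodes the atypical protein kinase C iota (PKCλ/ι), and it is the gene that the guide RNA of this study targets. The regions described here are the peaks of DNA methylation that overlap chromosome 3 between 169.000 and 171.000 Mb in the hg19 build, a window of 2 Mb in which PRKCI spans 169.940 to 170.024 Mb. The knockout list held 269 of its 296521 peaks in this window and the control list 242 of its 261657. The window was selected on measured values. It was chosen by pileup and background, which relative to each library were already known to differ between its left and right sides, so the ratios along it are descriptions and no test of them was made.

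DNA was profiled by MeDIP-seq, in which sheared and denatured DNA is pulled down with an antibody against 5-methylcytosine (clone 33D3) and sequenced. The cells were C42B, a human prostate cancer line, untreated and harvested 48 h after plating at about 70% confluency. The knockout cells carried a guide RNA against PKCλ/ι (sgPKCi) and the control cells a control guide (sgC, called WT by the submitters). Each genotype had 1 immunoprecipitated library and 1 input library, so no difference below has a replicate check. Whether the knockout was a clone or a pool of edited cells is not given in the sources used here. Methylation peaks do not check the loss of the kinase or the cut in its gene.

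Atypical protein kinases C work in the PAR polarity complex, in which PKCλ/ι binds PAR6 and PAR3 and sets apical against basolateral identity in epithelial cells. Unlike the conventional isoforms they respond neither to calcium nor to diacylglycerol. The gene lies in a segment of 3q that is often gained in squamous and ovarian carcinomas. In most active genes the CpG-rich start is unmethylated and the body is methylated. An immunoprecipitation of methylated DNA counts DNA fragments, so its height at a region reflects both the methylation there and the number of copies of the region in the cells.

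In the order of the RefSeq annotation of the later build GRCh38.p14, the protein-coding neighbours of PRKCI are SEC62, GPR160 and PHC3 on one side and SKIL, CLDN11 and SLC7A14 on the other. PHC3 is a subunit of the Polycomb repressive complex PRC1, SKIL encodes the SnoN repressor of TGF-β signalling, and CLDN11 encodes a tight junction claudin. Since that build is not the one of the peak lists, no peak is assigned to any of these neighbours.

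The start of PRKCI is shown because no peak was called over it. The sequence is RefSeq's for GRCh38.p14 on the plus strand of chromosome 3, from 250 bases before the transcription start to 50 bases after it, with each CpG in capitals.
PRKCI: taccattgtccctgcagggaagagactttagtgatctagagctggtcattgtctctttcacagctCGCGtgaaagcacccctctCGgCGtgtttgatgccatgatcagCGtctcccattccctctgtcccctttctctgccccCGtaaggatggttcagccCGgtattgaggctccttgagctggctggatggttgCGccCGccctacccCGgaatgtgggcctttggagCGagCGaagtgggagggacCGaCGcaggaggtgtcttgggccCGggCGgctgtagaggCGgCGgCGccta
The motif searched was CG, which reads the same on both strands. These 300 bases hold 19 CpGs and are 60.7% G or C. The last 150 bases, which hold the transcription start, have 13 of the CpGs and the first 150 have 6. At least 1 CpG is present in 96.0% of 35116 promoters of the same length, and at least 19 in 42.9%, with a median of 14.

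No peak of either list overlapped the start of the gene, taken at 169.940 Mb to the nearest kilobase. On the left the nearest peak ended 0.51 kb before the start in the knockout list and 0.501 kb before it in the control list. This region, at chr3:169938908-169939490 in the knockout list and chr3:169938949-169939499 in the control list, had a pileup of 61 in knockout and 47 in control cells. Pileup is the number of fragments that overlap at the summit of a peak. It was 13.8 times the library's lowest background in knockout cells and 16.1 times in control cells. The lowest background of a list stands for the mean pileup of its library over the genome, and it is used as the measure of depth under the name floor. It was 4.42 in knockout and 2.92 in control cells. By this measure the immunoprecipitate of the knockout was 1.51 times as deep as that of the control. On the right the first peak began 3.59 kb after the start in knockout and 3.55 kb after it in control cells. The CpG-rich start thus lay in a stretch of about 4 kb that was listed as a peak in neither genotype, between strong peaks on both sides. Such a stretch is not particular to the start, since stretches of 11.6, 6.69 and 4.13 kb without a peak lay within the gene. The missing peak says only that none was called there, and gives no methylation level.

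The body of PRKCI was dense in methylated regions in both genotypes. The gene held 28 knockout peaks and 28 control peaks (counting interval 18.6 to 40.5 for each), or 333 per Mb. Of 2351 tiles of 84 kb along chromosome 3, 134 (5.70%) held at least as many knockout peaks, and of 2330 such tiles 90 (3.86%) held at least as many control peaks. The median tile held 4 knockout and 3 control peaks. Peaks covered 15 kb of the gene (17.8%) in knockout and 16.0 kb (19.1%) in control cells. Their median length was 493.5 bp in knockout and 490.5 bp in control cells.

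The peaks stood in the same places in both libraries. Of the 28 knockout peaks in the gene, 24 overlapped exactly 1 control peak that overlapped nothing else, and the other 4 shared 2 longer control peaks. None of the knockout peaks was missing from the control list, against 23.9% of knockout peaks over the whole list. The control list had 2 peaks in the gene without a knockout counterpart (7.14%), against 12.1% over its whole list. Both were weak. They lay at chr3:169963902-169964205 with a pileup of 17 and at chr3:169974249-169974548 with a pileup of 15. Summits of the 24 pairs were a median of 26 bp apart, and in 17 of them they were no more than 50 bp apart. The longest stretch of the gene without a peak in either list was 11.6 kb long and ran from 48.5 to 60.1 kb after the start. The last 6.69 kb of the gene also held none.

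Relative to depth, the paired regions inside PRKCI were mostly lower in knockout cells, by amounts that counting error alone could cover at each single region. Below, a ratio is the pileup in knockout over control cells divided by 1.51, and its interval is the exact 95% interval for counting error. The ratio was below 1 in 18 of the 24 pairs (75%), against 45.4% of the 206556 pairs of the genome. Its median was 0.874, or -0.19 on the log2 scale, with an order-statistic interval over pairs of -0.43 to -0.01. The median over the genome was 0.04. In 4 pairs (16.7%) the ratio was at least 1.5-fold lower in knockout cells, against 3.6% of all pairs, and in 0 it was at least 1.5-fold higher, against 5.14% of all pairs. For none of the 24 pairs did the interval leave out 1. That happened in 0.889% of all pairs with a lower and in 2.31% with a higher pileup in the knockout. These pairs belong to the window chosen for this difference, so the comparison with the genome is not a finding about the gene.

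The first pair inside the gene, 3.8 kb from its start, had a pileup of 52 in knockout and 38 in control cells. Divided by the floors these were 11.8 and 13.0, a ratio of 0.904 (0.584 to 1.41). The next pairs had 40 against 25 and 42 against 32. The first of them was slightly higher in knockout cells by depth and the second slightly lower.

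The lowest ratio of the gene was 9.33 kb from its start, at chr3:169948779-169949552 in the knockout list. It had a pileup of 23 in knockout and 27 in control cells, a ratio of 0.563 (0.308 to 1.02). The control background was 1.65 times its floor there and the knockout background was at its floor. Pileup and background were thus both lower in the knockout at this region.

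The highest ratio was found 35.6 kb from the start, at chr3:169975351-169975857, with a pileup of 45 in knockout and 20 in control cells. The ratio was 1.49 (0.860 to 2.66). The pair nearest to it, at 36.3 kb, had 22 fragments in each genotype and a ratio of 0.661 (0.349 to 1.25). These neighbours less than 1 kb apart had ratios on opposite sides of 1, with overlapping intervals.

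Around the middle of the gene, 40.9 kb from the start, the pair at chr3:169980637-169981128 had one of the highest pileups of the gene in knockout cells, 63, against 42 in control cells, and a ratio of 0.991 (0.66 to 1.5). Its height was 14.2 times the floor in knockout and 14.4 times in control cells. The pair with the highest control pileup among the 24 lay 29.9 kb from the start and had 53 fragments in knockout and 50 in control cells, a ratio of 0.700 (0.467 to 1.05).

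Towards the end of the gene 2 pairs had more fragments in the shallower control library. The pair at 9.33 kb also did, so this is not particular to the end. At 67.7 kb the pileup was 38 in knockout and 39 in control cells, with a ratio of 0.644 (0.401 to 1.03). At 70.6 kb it was 37 in knockout and 39 in control cells, with a ratio of 0.627 (0.389 to 1.01). The tallest control peak of the gene, chr3:170002733-170004067, had a pileup of 62 over 1335 bp. The knockout list split it into 2 peaks with pileups of 52 and 34. The other split region, chr3:169986713-169987895 in the control list, had a pileup of 36, and the 2 knockout peaks over it had 30 and 34.

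Summed over the 24 pairs, the pileup was 930 in knockout and 719 in control cells, a depth-scaled ratio of 0.855 (0.775 to 0.943). In the right part of the gene, beyond its midpoint at 169.982 Mb, the sum of 11 pairs was 394 in knockout and 320 in control cells, a ratio of 0.814 (0.700 to 0.946). In the left part the sum of 13 pairs was 536 in knockout and 399 in control cells, a ratio of 0.888 (0.778 to 1.01). The medians differed by -0.12 on the log2 scale (right minus left, -0.55 to 0.38), so no difference between the parts was detectable. Levels followed each other between genotypes along the gene, with a Spearman correlation of 0.70 over the 24 regions, which share their libraries and are given as a description.

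To the left of the gene the paired regions were near the level of the rest of the genome, and to the right they were lower in the knockout. The stretch before the gene, from 169.000 to 169.940 Mb, held 147 knockout and 127 control peaks in 113 pairs. The pairs had a median pileup of 44 in knockout and 28 in control cells. Their median log2 ratio was 0.07 (-0.03 to 0.20), and 49 of them (43.4%) were below 0. The stretch after the gene, from 170.024 to 171.000 Mb, held 94 knockout and 87 control peaks in 71 pairs. The median pileup was 37 in knockout and 26 in control cells. The median log2 ratio was -0.17 (-0.29 to -0.10), and 52 pairs (73.2%) were below 0. Over the gene itself the median pileup of pairs was 39 in knockout and 26.5 in control cells.

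The stretch after the gene differed from the stretch before it by -0.24 on the log2 scale (-0.42 to -0.12), or 0.844-fold. These intervals describe the scatter of pairs within the libraries and are no test, since the window was selected on these ratios. The gene minus the stretch before it gave -0.26 (-0.53 to -0.06), and the gene minus the last 100 kb before it -0.22 (-0.52 to 0.04), an interval that includes 0. The stretch after the gene minus the gene gave 0.02 (-0.20 to 0.27). Between the 250 kb on each side the difference was -0.22 (-0.37 to 0.01), and between the 100 kb on each side -0.31 (-0.51 to -0.08). The difference over 250 kb, like that of the gene from the 100 kb before it, was thus within the scatter of pairs. Summed pileups of pairs after the gene were 2869 in knockout and 2130 in control cells, a ratio of 0.890 (0.841 to 0.942). Before the gene they were 5424 in knockout and 3353 in control cells, a ratio of 1.07 (1.02 to 1.12). Over all pairs of the genome the ratio of the sums was 1.04, within the interval of the stretch before the gene. Pairs at least 1.5-fold lower in the knockout numbered 7 of 71 (9.86%) after the gene and 3 of 113 (2.65%) before it. Pairs at least 1.5-fold higher numbered 1 of 71 (1.41%) after the gene and 7 of 113 (6.19%) before it. Over all pairs of the genome these shares were 3.6% lower and 5.14% higher, near those before the gene.

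**Figure D1:**
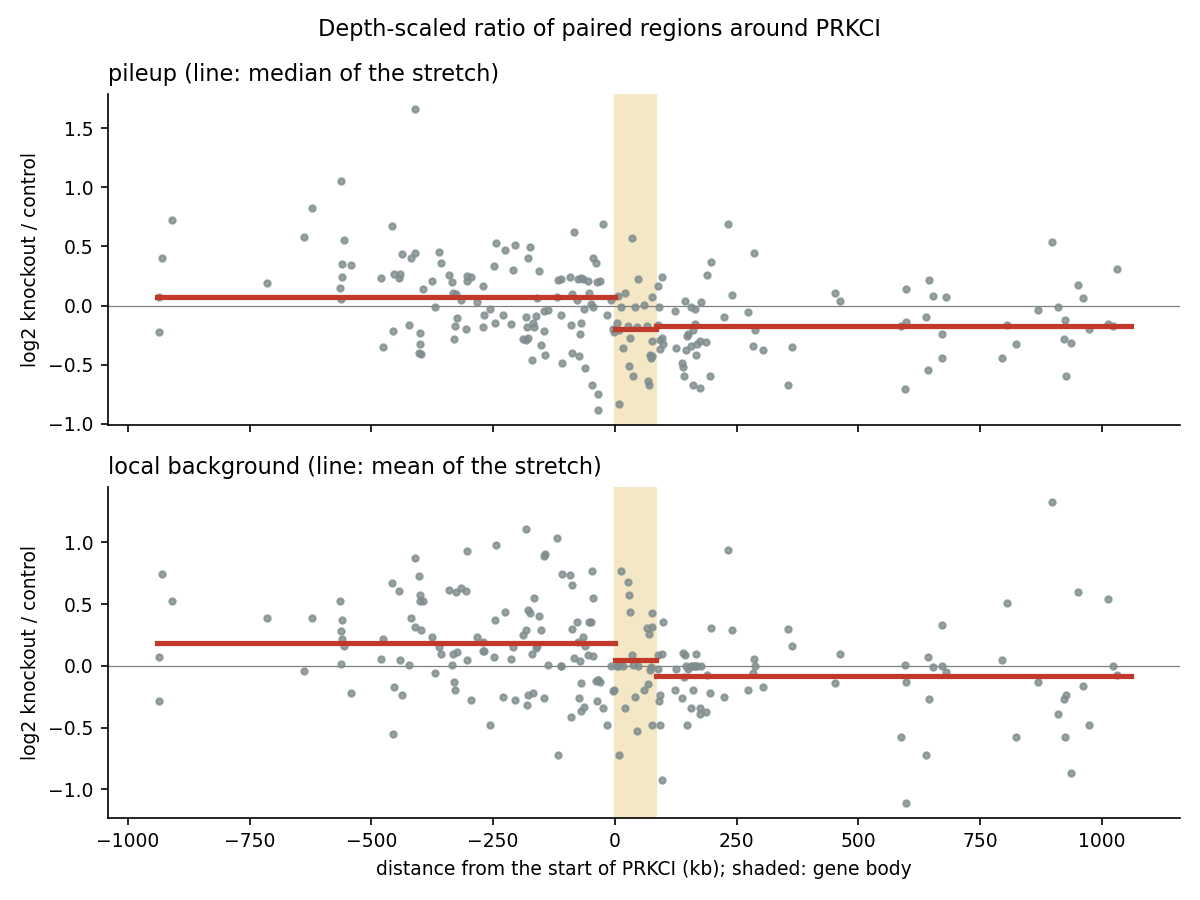
Depth-scaled log2 ratio, knockout over control, of the 208 paired regions of the window against distance from the gene start in kb, for pileup (top) and local background (bottom). Each point is a pair, and the lines mark the medians 0.07, -0.19 and -0.17 (pileup) and the means 0.18, 0.05 and -0.08 (background) before, within and after the gene. The scatter of single regions is wider than the step between the lines.

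The pairs next to the gene show how small the step is against the scatter of single regions. The 5 nearest before the gene had pileups in knockout and control cells of 44 and 18, 30 and 21, 25 and 16, 37 and 28, and 61 and 47, with the last closest to the gene. Their ratios ran from 0.858 to 1.62. The 5 nearest after the gene had 34 and 20, 46 and 34, 33 and 22, 40 and 34, and 26 and 21, with the first closest to the gene. Their ratios ran from 0.777 to 1.12. The 2 ranges overlapped, and the interval of each of these 10 pairs included 1.

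The interval of the ratio left out 1 in few pairs of the window. After the gene this was 1 of 71 (1.41%), which was lower in the knockout. Before it this was 6 of 113 (5.31%), of which 5 were higher and 1 was lower. Over the genome it was 3.20% of all pairs, with 2.31% higher and 0.889% lower in the knockout. The highest ratio of the window was 3.18 (2.15 to 4.84), at chr3:169529750-169531082, with a pileup of 149 in knockout and 31 in control cells. Its background was 4.90 times the floor in knockout and 2.67 times in control cells, so pileup and background were both higher there. The 4 others that were higher had ratios from 1.59 to 2.08, and all 5 lay more than 400 kb from the gene. The lowest ratio of the window was 0.543 (0.299 to 0.977), at chr3:169904338-169904770, with 23 fragments in knockout and 28 in control cells, at -35.5 kb from the gene start. The single one after the gene, at chr3:170295007-170295397, had 58 fragments in knockout and 61 in control cells, a ratio of 0.628 (0.431 to 0.915).

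Other regions mark the extremes on both flanks. After the gene, the tallest knockout peak of a pair was at chr3:170137282-170138054, with a pileup of 94 in knockout and 48 in control cells and a ratio of 1.29 (0.905 to 1.87). The highest ratio there, 1.61 (0.997 to 2.68), was at chr3:170171173-170171640, with 61 fragments in knockout and 25 in control cells. The lowest there, 0.612 (0.341 to 1.10), was at chr3:170535750-170536075, with 25 in knockout and 27 in control cells. Before the gene the tallest control peak of a pair, chr3:169779771-169782830, had 111 fragments in knockout and 70 in control cells, a ratio of 1.05 (0.770 to 1.43).

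In bins of 100 kb the ratio was above 1 far to the left of the gene, close to 1 just before it and mostly below 1 from the gene onwards. The 7 pairs 500 to 600 kb before the start gave a summed ratio of 1.31 (1.10 to 1.56). The 14 pairs 400 to 500 kb before it gave 1.23 (1.10 to 1.38). The 30 pairs of the last 100 kb before the start gave 0.998 (0.915 to 1.09). The 32 pairs of the first 100 kb after the start, which hold the gene, gave 0.870 (0.799 to 0.949), and the next 24 pairs gave 0.850 (0.776 to 0.932). Before the start 7 of 9 bins were above 1, with 3 intervals wholly above it. After the start 9 of 11 bins were below 1, with 3 intervals wholly below it. The summed ratio over all pairs of the genome was 1.04. Beyond 200 kb on the right the bins held at most 8 pairs each, and their ratios ran from 0.715 to 1.07.

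**Figure D2:**
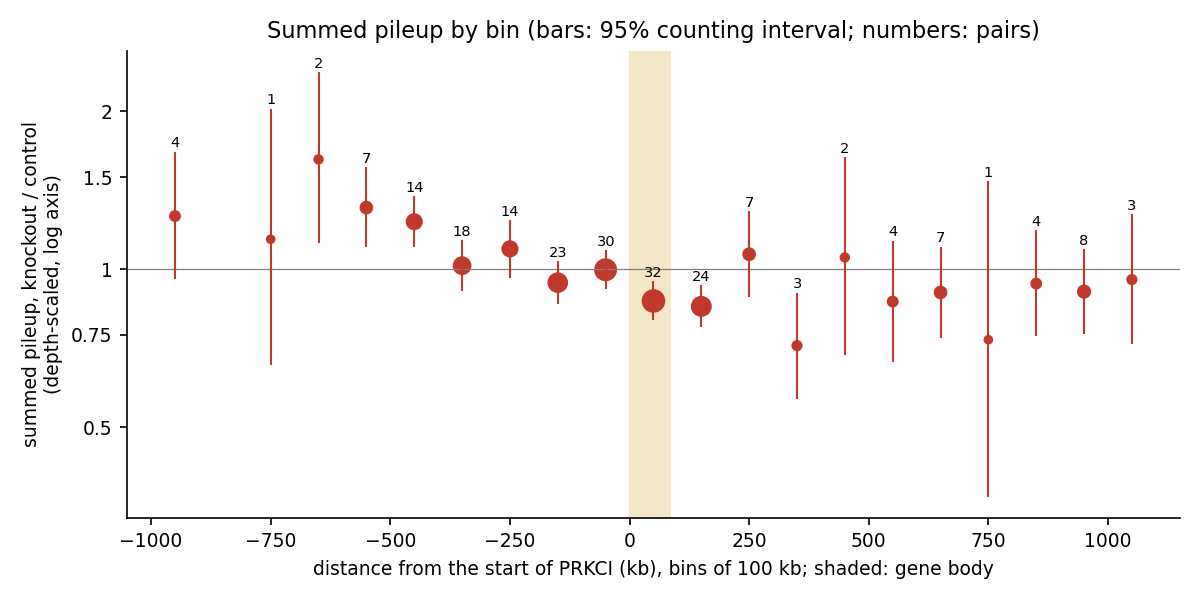
Summed pileup of paired regions, knockout over control and scaled by depth, in bins of 100 kb by distance from the gene start. The vertical axis is logarithmic, bars are 95% counting intervals and the numbers and point sizes give the pairs in each bin. The ratio is above 1 at 400 to 600 kb before the gene, close to 1 in the last 100 kb and 0.870 and 0.850 in the first bins after the start.

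The position of the step could not be fixed to the gene from these pairs. Splitting the 208 pairs of the window where this most reduced the squared error put the split at -402 kb from the gene start, just after the region of the highest ratio. It took up 16.8% of the summed squares. Splits within 90% of the best reduction lay between -402 and -183 kb, and a split at the gene start reached 72.3% of the best. With all 13025 pairs of chromosome 3 the split fell at -35.5 kb, and a split at the gene start reached 99.8% of the best. That profile was flat, since 518 positions from -4243 to 2532 kb reached 90%. The background gave a split at -43.9 kb in the window and at -38.4 kb over the whole chromosome. Without the region of highest ratio the split of the window moved to -188 kb.

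**Figure D3:**
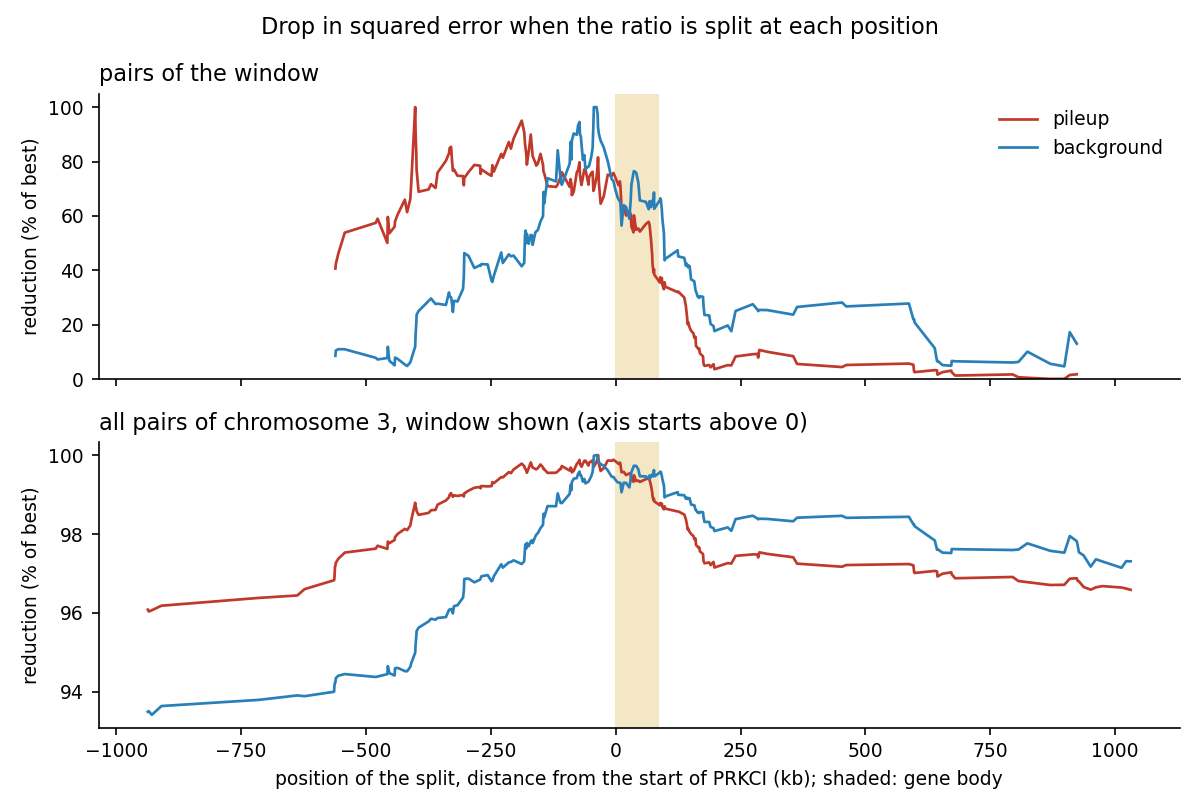
Reduction in squared error of the log2 ratio when the pairs are split at each position, as a percentage of the best split, for pileup and for background. The top panel uses the pairs of the window and the bottom panel all pairs of chromosome 3; the bottom vertical axis does not start at 0. In the window the pileup curve peaks at -402 kb and the background curve at -43.9 kb.

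The local background was lower in the knockout, relative to control, after the gene than before it, as the pileup was. Within the gene it did not stand apart from the stretch on either side. The peak caller takes the larger of the floor and the local level of input DNA, which was not immunoprecipitated, so a value over the floor is set by the input. The mean log2 ratio of background, knockout over control, was -0.08 after the gene (SD 0.38 over 71 pairs) and 0.18 before it (SD 0.38 over 113 pairs), a difference of -0.27 (-0.38 to -0.15). Within the gene it was 0.05 (SD 0.38 over 24 pairs). The gene minus the stretch before it gave -0.13 (-0.30 to 0.03), and the gene minus the last 100 kb before it 0.00079 (-0.19 to 0.20), both intervals including 0. The stretch after the gene minus the gene gave -0.13 (-0.31 to 0.04), an interval that also includes 0. Over all pairs of the genome the mean log2 ratio of background was 0.11. After the gene 45 of 94 knockout peaks (47.9%) had a background at the floor, and before it 22 of 147 (15%). In control cells these were 14 of 87 (16.1%) after the gene and 14 of 127 (11.0%) before it. Within the gene 10 of 28 knockout peaks (35.7%) and 9 of 28 control peaks (32.1%) were at the floor. Over the whole lists the share was 28.7% in knockout and 31.8% in control cells. Both sides of the gene thus lay below the whole list in control cells, while in knockout cells the left side lay below it and the right side above it.

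Where both backgrounds stood above the floor, after the gene the median log2 ratio of pileup was -0.24 (-0.35 to -0.10) over 31 pairs, and before it 0.07 (-0.04 to 0.21) over 93 pairs. Within the gene it was -0.24 (-0.60 to -0.17) over 12 pairs. Pairs with both backgrounds at the floor were few, 9 after the gene with a median of -0.21 and 3 before it with a median of 0.05. Within the gene there were 4, with a median of -0.03 and 2 of them below 0. Across the 208 pairs the ratio of pileup and the ratio of background had a Pearson correlation of 0.20. The pairs share their libraries, and the value is a description. Over all pairs, enrichment over the local background differed less between the sides of the gene. The median log2 ratio of the authors' fold enrichment, a ratio made by the caller, was 0.04 after the gene and 0.07 before it. Within the gene it was -0.23. Where both backgrounds stood above the floor, it was -0.16 after the gene, 0.05 before it and -0.35 within it. The smaller difference thus held only over all pairs. Only the knockout background was at the floor in 28 of 71 pairs after the gene and 9 of 113 before it. The part that copy number had in the pileup was not tested.

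Peaks listed in one genotype only were a further measure from the same contrast. Peaks with a −log10 q of at least 10, called strong here, numbered 22 in knockout and 21 in control cells inside PRKCI, and 0 of either lacked a counterpart. Such counts allow a share of up to 13.6% in knockout and 14.3% in control cells at 3 counts of the total, and up to 15.4% in knockout and 16.1% in control cells by the Clopper-Pearson interval used for the other shares. Over the whole lists the share was 14.9% of strong knockout peaks and 3.24% of strong control peaks, both within those Clopper-Pearson intervals. After the gene 8 of 72 strong knockout peaks (11.1%, 4.92 to 20.7) and 1 of 47 strong control peaks (2.13%, 0.0539 to 11.3) were listed in their own genotype only. Before it these were 18 of 125 (14.4%, 8.76 to 21.8) in knockout and 6 of 85 (7.06%, 2.63 to 14.7) in control cells. The intervals of the 2 sides overlapped in both genotypes, so a change along the window was not detectable at these numbers.

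Within 200 kb of the gene, 12 strong peaks were listed in knockout cells only and 4 in control cells only. Over the whole lists such peaks numbered 32804 (14.9% of strong peaks) in knockout and 4835 (3.24%) in control cells. A larger count in the knockout list is thus general. All strong peaks within 200 kb were not counted, so the 12 and 4 have no share to set beside these. The strongest of those in knockout cells only, chr3:170024745-170025279, began 0.745 kb after the end of PRKCI, with a pileup of 38 on a background at the floor, a fold enrichment of 7.19 and a −log10 q of 20.9. The nearest control peak to the end of the gene on that side began 4.27 kb after it. On the left, chr3:169762502-169762964 had a pileup of 41 and a −log10 q of 19.9, and the strongest of the whole stretch before the gene was chr3:169627369-169627844 with a pileup of 42 and a −log10 q of 21.5. The other 10 within 200 kb had pileups of 25 to 35 in knockout cells. They lay at chr3:169766499-169766936, chr3:169798079-169798570, chr3:169806635-169806933, chr3:169858164-169858555, chr3:169883816-169884129, chr3:169920627-169920975, chr3:169927792-169928128, chr3:169935740-169936138, chr3:170071672-170072084 and chr3:170163083-170163381. The knockout library was the deeper one.

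The 4 strong peaks in control cells only within 200 kb of the gene had pileups of 21 to 27. They lay at chr3:169782925-169783333, chr3:169841598-169841976, chr3:169873245-169873657 and chr3:170121966-170122357. The strongest of them, chr3:169873245-169873657, had a pileup of 27 and a −log10 q of 14.4, and it was also the strongest of its kind in the window. The last one was the only one in control cells after the gene.

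No peak lay across either limit of the window. At 169.000 Mb the first knockout peak inside, chr3:169002878-169003195, had a pileup of 22, and the last one outside had 42. The first control peak inside, chr3:169001935-169002246, had a pileup of 22, and the last one outside had 24. At 171.000 Mb the last knockout peak inside, chr3:170982023-170982379, had a pileup of 31, and the first one outside had 28. The last control peak inside, chr3:170970714-170971047, had a pileup of 16, and the first one outside had 25. The inside peaks of the 2 lists are different regions, so their values are not a comparison of the genotypes.

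Farther out the difference between the sides of PRKCI went on. In each of the 8 bins of 1 Mb after the gene start the median log2 ratio was below 0, from -0.35 to -0.16, and each interval of the median was below 0. Of the 8 bins before it, 7 had a median above 0, with 1 interval wholly above it. The bins before the gene start held 2 to 114 pairs, and those after it 71 to 137. The bins with 2 and 4 pairs had no interval, so the counts of intervals on the 2 sides are not alike. The bins next to the gene start on both sides lie almost wholly in the chosen window and are not farther out. In the 10 Mb before the window the median was 0.13 (0.08 to 0.17) over 278 pairs. In the 10 Mb after it the median was -0.23 (-0.25 to -0.20) over 913 pairs. Steps of at least 0.2 between neighbouring megabases were uncommon but not limited to this place. Among 1599 boundaries between adjacent windows of 1 Mb with at least 20 pairs each, 23 (1.44%) had a median lower by at least 0.2 on the right and 20 (1.25%) a median higher by at least 0.2. Of the 23, 12 (0.75% of all) were lower by at least the difference found across PRKCI. They include the boundary at 170 Mb of chromosome 3 itself, at -0.25, with 128 pairs on its left and 80 on its right. The most negative was -0.35, on chromosome 11 at 27 Mb, with 32 pairs on its left and 35 on its right. Medians of windows with few pairs scatter more. Since the window was chosen for its step, these shares describe the rest of the genome and give no support to it.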

How the data were processed

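MeDIP-seq of 2 genotypes was used, with 1 immunoprecipitated and 1 input library each; p-values across samples were not possible. Per the submitters' processing notes, FastQC, BWA, MACS2 and the hg19 build were used. Their versions and settings are not given in the sources used here. Per the file headers, the authors deposited 1 peak list per immunoprecipitate with the pileup signal at the summit (not scaled between libraries), the fold enrichment ratio, and −log10 p and −log10 q of each peak. Lists were matched to samples by genotype and antibody words.

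The background was recomputed as pileup plus 1, divided by fold enrichment, minus 1. A Poisson tail with it gave the deposited −log10 p to within 0.000329 in the knockout and 0.000573 in the control list. Pairs were a knockout and a control peak that shared at least 1 bp with each other and none with any further peak. Ratios were scaled by the floors, since read totals are unknown here. A pair counted as within the gene if either peak touched it. Intervals are at the 95% level: exact Poisson (counts), Clopper-Pearson (shares, ratios of counts), order-statistic (medians, combined as a root of squares for differences) and normal (means of background). They cover counting error, or the scatter of pairs, not replicate error. Pileups of neighbouring peaks were summed as if no fragment were shared.

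Regions were named by rule: every peak in PRKCI, the 5 nearest pairs on each side, extremes of each stretch, and strong list-only peaks within 200 kb. The members and lists were chosen with earlier results of these data known. Overlaps were tested on random intervals, and the step between the sides and the interval of a ratio of counts on simulated counts. The split was run on simulated counts with counting error alone and a step at the gene, with no limit to pass. The other intervals were not tested. Python 3.11.15, numpy 2.4.6, pandas 2.3.3, scipy 1.17.1 and matplotlib 3.10.9 were used.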

Additional observations from a re-analysis of the deposited data

How the results depend on the processing

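Of 64 alternatives over 12 results, 52 stayed within 1.5 times (counts), within the interval of the reported value (ratios) or within the range of near-best splits (position), 12 did not and 0 reversed a value whose interval left out 0. The alternatives with grouped overlaps, without the highest ratio, and for the position with low background or 500 kb on each side were added after the values were seen, as was the pileup step with both backgrounds above the floor. The difference between the sides of the gene was below 0 in all 11 alternatives, from -0.31 (both backgrounds above the floor) to -0.22 (250 kb on each side). Centred on chromosome 3 pairs before the window, the stretch before the gene had a median of -0.033. The split lay at -35.5 kb from the gene start with all pairs of chromosome 3, with background below 2 times the floor and with 500 kb on each side, and at -43.9 kb by the background ratio. Strong list-only peaks of the window numbered 26 in knockout and 7 in control cells at a −log10 q of 10. With the limit at 5 they numbered 45 in knockout and 23 in control cells, and at 20 they numbered 3 and 0. When those closer than 1000 bp to a peak of the other genotype were left out, 21 remained in knockout and 2 in control cells. Shares were not computed at these other settings, so the counts there do not compare the genotypes. A fold of at least 5 left 170 knockout peaks in the window and a −log10 q of at least 10 left 153 control peaks. The fewer peaks at stricter limits follow from the limits; the cause was not tested for the others. No paired analysis was possible because there was only 1 library per genotype. Depth limits single regions: the pair with pileups of 37 in knockout and 28 in control cells next to the gene has a ratio of 0.873 with an interval of 0.520 to 1.48.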
